A study of Glycine soja with 4 samples.

Results

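The small RNAs named miR1510 and miR2109 in roots of wild soybean (*Glycine soja*) are described here, together with the genes that degradome sequencing listed as their targets. They were taken by name: every entry named miR1510 or miR2109, whatever its prefix, letter or strand, and every gene listed for these names. This gave 5 distinct sequences under 6 names, of 217 distinct sequences in all, and 4 target genes of 78. Seedlings of the strain BW69, a genotype that the study had picked for its Al tolerance, were moved into nutrient solution of pH 4.5 that held either 0 µmol/L AlCl3 (Al-free) or 50 µmol/L AlCl3 (Al-treated). The outermost 10 cm of the roots was taken at several times from 1 to 96 h, and the times were pooled, so each condition had 1 small RNA library and 1 degradome library. With 1 library per condition there was no replicate check. Every exact 95% interval (CI) and test below covers counting error only and compares the reads of these libraries, not the conditions. With each distinct sequence counted once, 30411 reads were listed from Al-free roots and 44493 from Al-treated roots.

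Plant disease resistance genes of the NB-LRR class encode intracellular receptors that detect pathogens. The NB-ARC domain binds a nucleotide and acts as the switch of the receptor, the leucine rich repeats take part in recognition, and the TIR domain found at the N-terminus of one large group is a signalling domain. In legumes several miRNA families pair with transcripts of this class and guide their cleavage. miR2109 has been described in *Medicago* as a regulator of TIR-type genes and miR1510 in soybean as a regulator of NB-LRR genes. A miRNA is cut from a hairpin as a duplex of a strand from the 5′ arm (p5) and a strand from the 3′ arm (p3). One of them, here called the mature strand, is usually kept, and the other strand is usually found at a lower level.

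The 5 sequences are shown because the strand pairs and the sharing of one sequence by 2 names decide how the reads can be assigned. Capitals mark the seed, bases 2 to 8 from the 5′ end. All are written 5′ to 3′ as DNA letters, as deposited, and each was 21 nt long.
gso-miR1510a and gso-mir1510b (mature): tGTTGTTTtacctattccacc
gso-mir1510a-p5: aGGGATAGgtaaaacaatgac
gso-mir1510b-p5: aGGGATAGgtaaaacaactac
gso-miR2109 (mature): tGCGAGTGtcttcgcctctga
gso-mir2109-p3: gGAGGCGTagatactcacacc

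The mature sequence of gso-miR1510a and gso-mir1510b was the same, so its reads could not be divided between the 2 precursors. The p5 strands of these precursors could be told apart. They shared their first 17 bases, seed included, and differed by the substitutions C18T and T19G, with the base of gso-mir1510b-p5 first, the base of gso-mir1510a-p5 last and numbering starting from 1 at the 5′ base. No other sequence of the table carried the seed of any of the 5. Both mature strands began with T (U in the RNA), as did 40.6% of the 217 sequences. The p5 strands began with A and gso-mir2109-p3 with G. Apart from the p5 strands, which were 2 changes apart, the members were unlike each other and unlike the rest. The nearest sequence outside the group was 8 changes (substitutions or indels) from mature miR1510 and 9 or 10 from the others. GC content was 38.1% for each miR1510 strand and 57.1% for each miR2109 strand.

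Each listed strand pairs with its mature strand. By the energy model of RNAduplex, mature miR1510 formed 17 base pairs without interruption with either p5 strand, over positions 2 to 18 of both. gso-miR2109 formed 17 base pairs with gso-mir2109-p3, interrupted at its positions 3 and 12. In each of the 3 duplexes, the register of the pairs placed 2 nt beyond the other strand at both 3′ ends, the geometry known for Dicer products. Base 2 of mature miR1510, a G, lay opposite base 18 of the p5 strand, the site of C18T. It formed a G-C pair with gso-mir1510b-p5 and a G-U pair with gso-mir1510a-p5. The predicted energies were -26.1 kcal/mol for the duplex with gso-mir1510b-p5, -24.4 kcal/mol for that with gso-mir1510a-p5 and -26.7 kcal/mol for the miR2109 duplex.

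gso-mir2109-p3 was the most abundant of the 5 sequences and the one whose reads differed most in number between the libraries. It was read 2655 times in Al-free roots and 1201 times in Al-treated roots, and moved from rank 3 to rank 7 among all sequences. Its share of the listed reads was 8.73% (exact 95% interval from 8.42 to 9.05) without Al and 2.70% (2.55 to 2.85) with Al. After scaling by the totals of clean reads, those left once adaptors, short and junk reads were removed, its level with Al was 0.437 times that without Al. On the log2 scale the ratio of Al-treated over Al-free was -1.20 (CI from -1.29 to -1.10, exact binomial test, adjusted p = 6.16e-134). The whole CI lay beyond the fold threshold, set at log2 ratios of 1 and -1. The mature strand, gso-miR2109, was read 796 and 643 times. It was lower with Al by a smaller factor, at a log2 ratio of -0.36 (CI from -0.51 to -0.21, adjusted exact p = 1.27e-05).

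**Figure D1:**
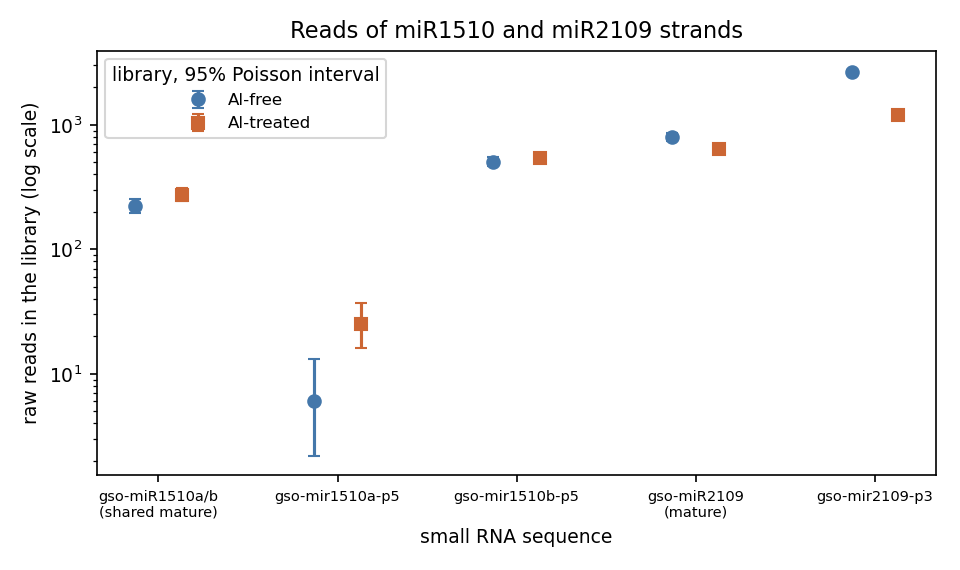
Raw reads of the 5 sequences in the Al-free (circles) and Al-treated (squares) small RNA library on a log axis; bars are exact 95% Poisson intervals of each count. gso-mir2109-p3 stands highest in both libraries and drops from 2655 to 1201 reads, while gso-mir1510a-p5 stands lowest with 6 and 25 reads.

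The shared mature sequence of miR1510 had 224 reads without Al and 275 with Al, and held rank 20 and 21. The ratio on the log2 scale, 0.25, had a CI from -0.015 to 0.51 (adjusted exact p = 0.120), so no difference was detectable at this depth. gso-mir1510b-p5 was more abundant, with 507 reads without Al and 544 with Al. Its log2 ratio of 0.051 (CI from -0.13 to 0.23, adjusted exact p = 0.690) was within counting error as well. gso-mir1510a-p5, the p5 strand of the other precursor, was rare and was read 6 and 25 times. It stood at a log2 ratio of 2.01 (CI from 0.69 to 3.58, adjusted exact p = 0.00287), so the point estimate was past the fold threshold while the CI reached below it.

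Of the 5 sequences, 1 was thus past the fold threshold as higher in the Al-treated library and 1 as lower. Among all 130 distinct sequences with at least 10 reads in either library, 35 (26.9%) were higher by this rule and 21 (16.2%) were lower. By the adjusted exact p under 0.05, 1 member had more reads with Al and 2 had fewer, against 33 (25.4%) and 22 (16.9%) of the 130. With 5 members, counts of 1 or 2 were not set apart from these shares. The median log2 ratio of the 130 was 0.25, and mature miR1510 lay at that median. Scaling by summed listed reads lowered every log2 ratio by 0.50 and so turned the 35 higher and 21 lower sequences into 21 higher and 34 lower.

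**Figure D2:**
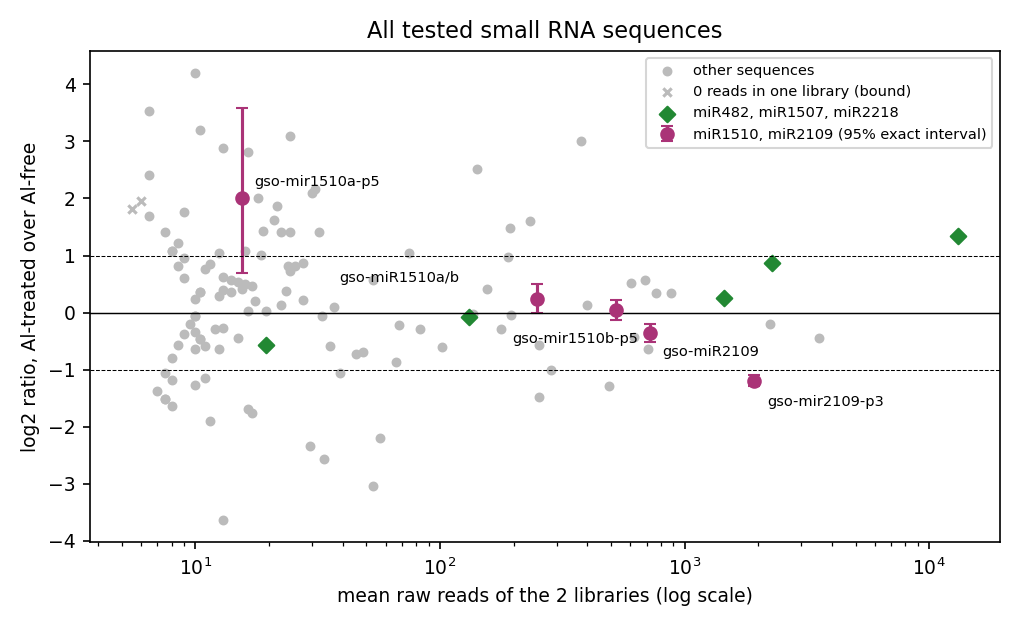
Log2 ratio of scaled reads (Al-treated over Al-free) against the mean raw reads of the 2 libraries (log axis) for the 130 sequences with at least 10 reads in either library; dashed lines mark log2 ratios of 1 and -1, bars on the 5 members are exact 95% intervals, diamonds mark strands deposited under the names miR482, miR1507 and miR2218, and crosses are bounds for sequences with 0 reads in one library. gso-mir2109-p3 lies below the lower line with a narrow interval, gso-mir1510a-p5 lies above the upper line with a wide one, and the other 3 members lie between the lines.

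Scaling decided the sign for part of miR1510. The log2 ratio of the mature sequence was between 0.040 and 0.25 under 4 scalings and -0.25 under scaling by summed listed reads. The sign of gso-mir1510b-p5 was positive only with clean reads, and under summed listed reads its log2 ratio was -0.45 (adjusted exact p = 2.84e-06). Much of the gap between these sums lay in gso-miR2218, the sequence with the most reads, without which they were 23129 and 25432. Both strands of miR2109 were lower and gso-mir1510a-p5 was higher under all 5 scalings, from -1.69 to -1.20 for gso-mir2109-p3, from -0.86 to -0.36 for gso-miR2109 and from 1.51 to 2.01 for gso-mir1510a-p5.

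**Figure D3:**
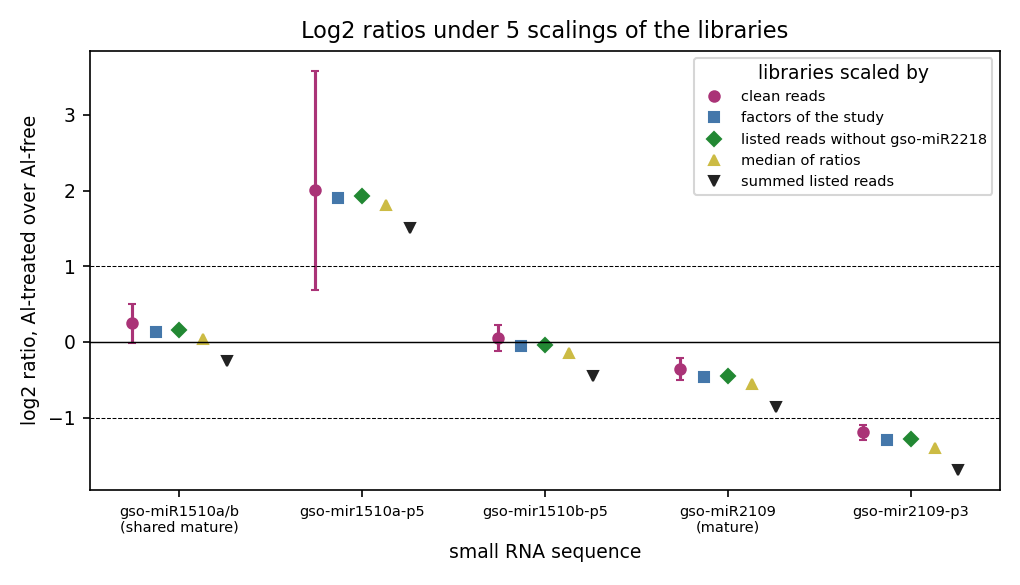
Log2 ratio (Al-treated over Al-free) of each of the 5 sequences with the libraries scaled in 5 ways; bars on the clean-read values are exact 95% intervals and dashed lines mark 1 and -1. Each change of scaling shifts all sequences alike, which turns the sign of the shared miR1510 sequence and of gso-mir1510b-p5 but not of gso-mir1510a-p5 or either miR2109 strand.

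Summed over strands, miR2109 gave 3451 reads without Al and 1844 with Al, and the log2 ratio was -0.95 (CI from -1.04 to -0.87). miR1510 summed to 737 and 844 reads, with a log2 ratio of 0.14 (CI from 0.00059 to 0.29) whose sign turned under 2 of the other scalings. Together both families made up 13.8% of the listed reads of Al-free roots and 6.04% of those of Al-treated roots. Scaled by clean reads, their log2 ratio was -0.69 (CI from -0.76 to -0.62). Shares of listed reads also depend on the listed sums, 30411 without Al and 44493 with Al. By such shares miR1510 too was lower with Al, at 1.90% against 2.42%.

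The balance between the strands of a pair can be read within a library and needs no scaling. It is a balance of reads, and each member strand was counted by the single sequence listed under its name. Whether reads of other lengths came from the same strands was not analysed. gso-mir2109-p3 outnumbered its mature strand in both libraries, 3.34 to 1 without Al and 1.87 to 1 with Al. It held 76.9% of the reads of its pair (exact interval from 75.5 to 78.3) in Al-free roots and 65.1% (62.9 to 67.3) in Al-treated roots, and these intervals did not overlap. The odds of reading this strand were 0.560 times as high in the Al-treated library (interval from 0.494 to 0.635, Fisher's exact test, adjusted p = 1.88e-18). The reads of miR2109 were thus lower on both arms and the arms drew closer to each other.

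gso-mir1510b-p5 also outnumbered the mature sequence, 2.26 to 1 and 1.98 to 1, although that sequence is shared with the other precursor. Its share of 69.4% (65.9 to 72.7) without Al and 66.4% (63.1 to 69.7) with Al did not differ detectably (odds ratio 0.874, interval from 0.701 to 1.09, adjusted Fisher p = 0.424). gso-mir1510a-p5 held 2.61% (0.963 to 5.59) and 8.33% (5.47 to 12.1) of its pair, an odds ratio of 3.39 (1.33 to 10.3, adjusted Fisher p = 0.0272). This pair counts every read of the shared mature sequence, so it is not the strand balance of 1 precursor. With the shared reads split equally between the precursors, the share was 5.08% and 15.3% (adjusted Fisher p = 0.0331). When the p5 strands of both precursors were added together, which gave 513 and 569 reads, the share was 69.6% and 67.4% (adjusted Fisher p = 0.575).

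The p5 strands could be compared with each other without the shared sequence. gso-mir1510a-p5 made up 1.17% (exact interval from 0.430 to 2.53) of the p5 reads of miR1510 in Al-free roots and 4.39% (2.86 to 6.42) in Al-treated roots, an odds ratio of 3.88 (1.54 to 11.7, Fisher's exact p = 0.00155, unadjusted). In both libraries nearly all p5 reads came from gso-mir1510b-p5. These values rest on the 6 and 25 reads of the rarer strand.

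**Figure D4:**
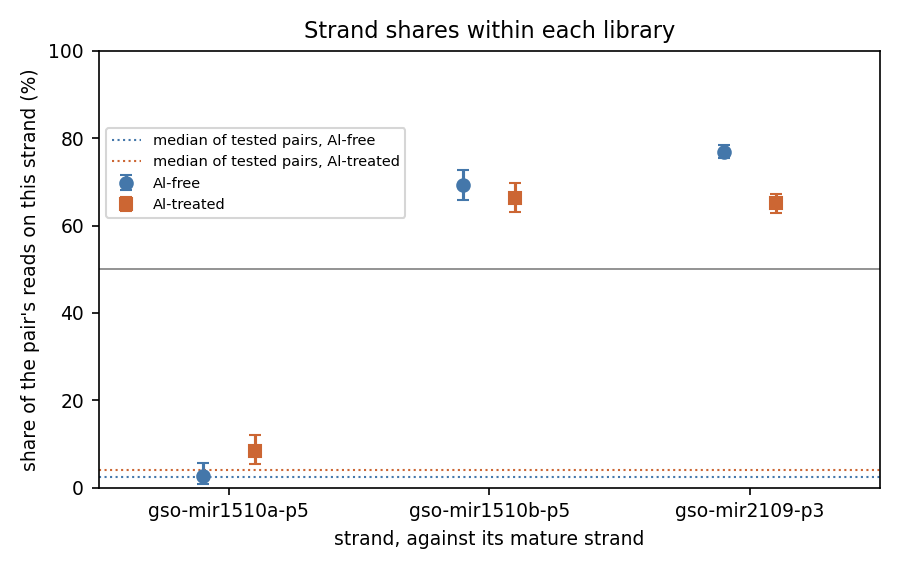
Share of a pair's reads that lay on the p5 or p3 strand rather than on the mature strand, in the Al-free (circles) and Al-treated (squares) library; bars are exact 95% intervals, dotted lines the medians of the 33 tested pairs and the grey line equal strands. gso-mir1510b-p5 and gso-mir2109-p3 lie above equal strands in both libraries, and gso-mir2109-p3 drops from 76.9% to 65.1%.

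Over the 33 strand pairs with at least 10 reads in either library, the median share of the other strand was 2.5% without Al and 4.08% with Al. The other strand had more reads than the mature strand in both libraries in 4 pairs (12.1%), with at least 10 reads on the larger strand. gso-mir2109-p3 and gso-mir1510b-p5 were 2 of these 4. The others were PN-mir4415-p3, with 41 reads against 0 and 243 against 2, and PN-mir1520i-p5, with 11 against 0 and 15 against 4. The 2 members rested on more reads than these. A difference of the strand share between the libraries passed an adjusted Fisher p of 0.05 in 8 of the 33 pairs (24.2%), 5 towards the other strand and 3 towards the mature strand. The 3 member pairs contributed 1 in each direction, and the third did not pass. The member pair that moved towards the other strand was that of gso-mir1510a-p5, counted with all reads of the shared mature sequence.

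Other miRNAs that act on NB-LRR genes in legumes were represented by miR482, miR1507 and miR2218, and 0 sequences were named miR2118. All were sought by name alone, so the lack of a name does not show that a miR2118 sequence was absent. Sequences were not compared with known miR2118 sequences, so one may be listed under another name, miR2218 included. The mature strands of miR482, miR1507 and miR2218 were 22 nt long, where the listed miR1510 and miR2109 strands were 21 nt. In plants, miRNAs of 22 nt are known to start the production of secondary siRNAs from their targets. Secondary siRNAs were not analysed here, so the listed lengths do not show which of these miRNAs start them. The mature strands named miR482, miR1507 and miR2218 lay above gso-miR2109. The 1 exception, if counted, is the sequence listed as PC-3-3p, which the study names PN-miR1507c. gso-miR2218 had a log2 ratio of 1.34 (CI from 1.30 to 1.38) and the sequence of gso-miR482a and b one of 0.86 (0.78 to 0.95). The sequence of gso-miR1507a and b lay at the median of the table, 0.25 (0.14 to 0.36), so that its sign turns with summed listed reads. The CIs of these named sequences did not overlap that of gso-miR2109. PC-3-3p, also 22 nt long, had 377 and 194 reads and lay below gso-miR2109, at a log2 ratio of -1.01 (-1.27 to -0.76), again without overlap. The mature strands of miR1507 thus lay on both sides of gso-miR2109, and this order does not depend on the scaling. The CI of gso-miR1507a and b, with 1301 and 1601 reads, lay inside that of mature miR1510. In the pair of gso-mir2218-p5 the strand share also fell, from 1.78% to 0.677% (adjusted Fisher p = 1.29e-13), with 132 and 130 reads of gso-mir2218-p5 and more reads of its mature strand with Al.

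Among other sequences with at least 100 reads in either library, the log2 ratio nearest to that of gso-mir2109-p3 was that of PN-miR166b, -1.29 (-1.49 to -1.09, 687 and 292 reads). The next were PC-3-3p, the sequence named PN-miR1507c in the study and described above, and that of PN-miR156b, c and d, -1.48 (-1.77 to -1.19, 369 and 137 reads). Likeness was measured as the distance between log2 ratios over 2 libraries. The intervals of PN-miR166b and PC-3-3p overlapped that of gso-mir2109-p3, and so did that of PN-miR156b, c and d.

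The degradome holds the cut ends of mRNAs, and a target is called from ends found at the site that pairs with a miRNA. The study's calls included sites whose ends were not the most abundant on the transcript. The deposited lists named 4 genes for these miRNAs, with no value for any of them. The Al-free list named Glyma04g39740 and Glyma12g27800 for gso-miR1510, which are both annotated as TIR domain proteins. The Al-treated list named Glyma02g04750 for gso-miR1510, annotated as an NB-ARC domain protein, and Glyma16g34000 for gso-miR2109, annotated with leucine rich repeats and as an apoptotic ATPase, a term used for the NB-ARC type of ATPase. All 4 annotations thus name a domain of the NB-LRR class. Each of the 4 genes was listed for one miRNA name only. The lists give the name miR1510 without a letter, so they do not say which precursor is meant, and they name neither gso-mir1510a-p5, gso-mir1510b-p5 nor gso-mir2109-p3.

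The entries of gso-miR1510 in the Al-treated list cannot be taken at face value. It held 8 lines for gso-miR1510 and every one of them named Glyma02g04750, the only pair of miRNA and gene that stood more than once in either list. The supplementary target table of the study names several genes for miR1510 in Al-treated roots, both genes of the Al-free list among them. The text of the study gives their number as 8. The absence of Glyma04g39740 and Glyma12g27800 from the deposited Al-treated list is therefore no sign that they were not cut there.

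As deposited, 2 of the 4 genes stood in the Al-treated list only, 2 in the Al-free list only and 0 in both. Over all 78 target genes, 37 (47.4%) stood in the Al-treated list only, 8 (10.3%) in the Al-free list only and 33 (42.3%) in both. These counts include the gso-miR1510 entries as deposited, so the doubt about those entries carries over to them. For gso-miR2109 the single gene, Glyma16g34000, was listed with Al, where both strands of the miRNA had fewer reads. The paper likewise reports cut fragments for gso-miR2109 in the Al-treated library only. The lists carry no reads, and the study's own values for cut sites were not used. How many cut ends stood behind that entry, or behind its absence from the Al-free list, was thus not analysed here. Of the other miRNAs listed above as acting on NB-LRR genes, 0 lines in the lists named miR482, miR1507, miR2118 or miR2218.

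**Figure D5:**
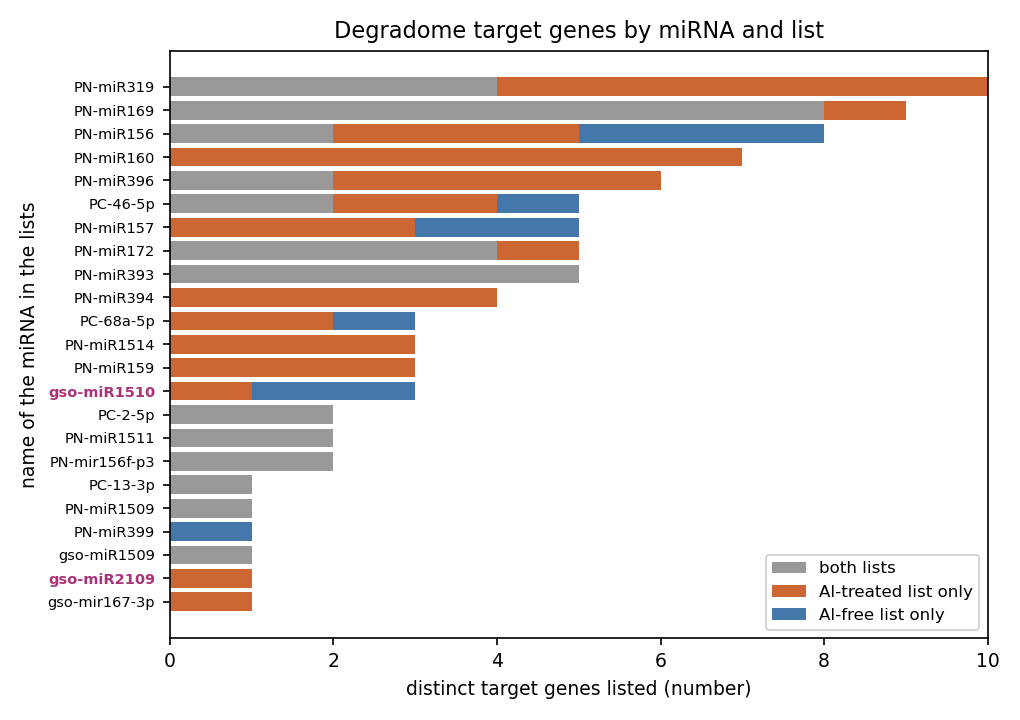
Number of distinct target genes per miRNA name in the deposited degradome lists, divided into genes in both lists, in the Al-treated list only and in the Al-free list only; gso-miR1510 and gso-miR2109 are in bold. gso-miR1510 shows 1 gene in the Al-treated list only and 2 in the Al-free list only, and its Al-treated bar rests on 8 lines that repeat 1 gene.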

How the data were processed

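The members and lists were chosen with earlier results of these data known. The small RNA values are raw counts of reads per name and sequence, which the authors deposited without normalization; they discarded reads that lacked the adaptor, were short or were junk, set aside those from mRNA, Rfam and repeats, and compared what was left with miRBase in ACGT101-miR, with *G. max* as the reference genome. The degradome lists that the authors deposited hold a miRNA name and a gene identifier called with CleaveLand and ACGT301-DGE, in no unit and with no score. Domain names of target genes were taken from the study's target table. Blank lines were dropped, and names sharing a sequence were counted once.

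Log2 ratios were scaled by the clean reads that the study gives for each library, since the listed reads, 30411 and 44493, are only part of a library. Exact two-sided binomial tests were adjusted (Benjamini-Hochberg) over all 130 sequences with at least 10 reads in either library, and Fisher's exact tests over all 33 strand pairs, paired by name. A count of 0 was set to 3 reads for a bound. Intervals are Clopper-Pearson at 95%. Reads carry no molecular identifiers, so intervals cover counting error only. edgeR was not used, since 1 library per condition leaves no dispersion to estimate. The procedures were tested on simulated counts that held counting error only and a known scaling. Such counts cannot test variation between libraries or the choice of scaling. Duplexes were predicted with RNAduplex 2.7.2, at its default energy model. Python 3.11.15, SciPy 1.17.1, NumPy 2.4.6 and matplotlib 3.10.9 were used. Every name or gene of miR1510 and miR2109 is named; others were named by rule (miR482, miR1507, miR2118 and miR2218, the 3 nearest log2 ratios, and pairs whose other strand led in both libraries). The reference table of 59365 genes held 0 of the 78 target identifiers, so positions are not given. Alternatives were other scalings, read minimums, pseudocounts, assignments of shared sequences and ways to count targets.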

Additional observations from a re-analysis of the deposited data

How the results depend on the processing

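Scaling turned the sign of log2 ratios near 0. The log2 ratio of gso-mir1510b-p5 turned from 0.051 to -0.058 with the normalization factors of the study, to -0.45 with summed listed reads, to -0.035 with these sums without gso-miR2218 and to -0.15 with the median of ratios. That of mature miR1510 turned to -0.25 with summed listed reads only. The summed reads of miR1510 turned from 0.14 to -0.35 with summed listed reads and to -0.060 with the median of ratios. The summed reads of miR2109 moved from -0.95 to -1.06, -1.45, -1.04 and -1.16 in the same order of scalings as for gso-mir1510b-p5. These shifts follow from the scaling itself, which moves all sequences alike. The number of sequences past the fold threshold, 56, fell to 25 with at least 10 reads in both libraries and to 16 with at least 50 in either, where fewer sequences were tested. The share of gso-mir1510a-p5 in its pair rose by 5.72 percentage points, but with the p5 strands of both precursors summed the change was -2.19. Counting each line, an alternative chosen after seeing the data, gave 9 entries in place of 2 target genes in the Al-treated list only. In all, 41 of 56 alternatives kept the direction and the side of the threshold, or the value within its interval or the count within 1.5 times. No paired analysis was possible because each condition had 1 library. At 6 and 25 reads, depth limits gso-mir1510a-p5 most.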
